A study of Mus musculus with 16 samples.

Results

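The cytosolic ribosomal protein genes encode the proteins of the small (Rps) and large (Rpl) subunits of the ribosome of the cytoplasm and the acidic proteins of its stalk (Rplp). Their H3K27Ac signal was examined in adult mouse cardiomyocytes with and without desmin, the muscle intermediate filament protein. H3K27Ac is acetylation of lysine 27 of histone H3, a mark of active promoters and enhancers. A gene was taken as a member when its symbol in any H3K27Ac peak list was Rpl, Rps or Rplp followed by a number, with or without a closing a, x, l or y1. This rule leaves out pseudogenes and the ribosomal S6 kinases. It gave 68 genes among the 10927 gene symbols of the lists. 67 of them had a promoter peak, defined as a peak no more than 3000 bp from a transcription start by the deposited annotation, in at least 1 list. The exception was Rps4l, whose peaks lay 28.7 to 36.8 kb from its start.

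Cardiomyocytes were isolated enzymatically from hearts of mice aged 3 months. The 4 H3K27Ac lists came from Des+/+ mice at rest (Des+/+ basal), desmin-null mice at rest (Des-/- basal), Des+/+ mice after swimming exercise as a mild stress (Des+/+ swim) and desmin-null mice after swimming (Des-/- swim). The study's methods describe an αMHC-GFP reporter (a green fluorescent protein driven by the cardiac myosin heavy chain promoter) in its Des+/+ and Des-/- mice, which both genotypes would then share. Each list rests on 1 library, made from chromatin of several mice pooled, so no comparison here has a replicate check, and no test between groups was possible. The design asks whether loss of desmin, swimming, or both together go with another acetylation landscape.

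The height of a peak is the number of reads stacked at its summit. Heights started at 15 in every list, and the peaks were called against an input, so a promoter without a listed peak did not meet the authors' criteria and was not shown to lack the mark. The lists held 15757 peaks for Des+/+ basal, 16638 for Des-/- basal, 11157 for Des+/+ swim and 10407 for Des-/- swim. Sequencing depth was not recorded in them. Intervals for the height or height ratio of a single gene cover counting error only. A height of 20 has an exact 95% Poisson interval of 12.2 to 30.9, and a height of 40 one of 28.6 to 54.5. Intervals for shares and medians are taken over genes, and none covers variation between libraries. Of 7 cardiomyocyte marker genes (among them Myh6, Tnnt2 and Ttn), 5 had a promoter peak in Des-/- swim and 7 in each of the other 3 lists, with median heights of 30, 37, 27 and 22. Relative to the median of all genes, 3 of the 5 in both swim lists (Myh6, Ryr2 and Ttn) were at least 1.5-fold lower in Des-/-. None of the 5 was higher, and 3.96% of genes other than members were lower. Of 5 fibroblast markers, 1 had a peak in each basal list and 0 in the swim lists, and of 4 leukocyte markers 0 had one. Of 4 endothelial markers, 4 had one in each basal list and 3 in each swim list, with median heights of 24.5, 23.5, 21 and 22 (all in the order of the lists above), so genes that define endothelial cells were marked as well. The part of endothelial cells, or of the lower cardiomyocyte markers in Des-/- swim, in the values below was not tested.

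A ribosome needs its proteins in nearly equal numbers, and in mammals their genes are scattered over the genome rather than gathered in operons. They are active in nearly every cell type. The protein output of most of them is set largely at translation: their mRNAs start with a C followed by a run of pyrimidines, the 5′ terminal oligopyrimidine (TOP) motif, through which mTORC1 and the RNA-binding protein LARP1 control their entry into polysomes. Their introns often carry small nucleolar RNAs (snoRNAs), which guide the modification of ribosomal RNA. In the heart, growth and work load are known to act on ribosome production, and heart and skeletal muscle express a paralog, Rpl3l, beside the general Rpl3.

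The starts of these genes are shown first, since it is their promoters that carry the peaks. RefSeq promoter windows (GRCm38.p6, 250 bases before to 50 bases after each start) were found for 50 of the 68 members and for 10 further genes that match the symbol rule, 72 windows in all. A C at the start followed by at least 4 more pyrimidines was present in 14 of these 72 windows (19.4%, 95% Wilson interval 12.0 to 30), in 2.51% of all 32851 windows of the table and in 2.32% of the windows of other genes with an H3K27Ac promoter peak. The bases from 15 before to 15 after the start are given for those with a peak, 5′ to 3′ on the strand of the gene, with the pyrimidine run in capitals. Rpl3l, the muscle paralog, has no such run at its RefSeq start and is shown for contrast.
Rps27, chr3:90213634-90213663, minus strand: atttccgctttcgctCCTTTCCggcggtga
Rpl35a, chr16:33056467-33056496, plus strand: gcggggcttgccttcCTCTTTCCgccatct
Rplp2, chr7:141447636-141447665, plus strand: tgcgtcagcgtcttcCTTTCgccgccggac
Rps6, chr4:86857353-86857382, minus strand: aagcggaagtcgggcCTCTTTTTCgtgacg
Rps18, chr17:33955651-33955680, minus strand: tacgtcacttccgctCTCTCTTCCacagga
Rpl28, chr7:4792950-4792979, plus strand: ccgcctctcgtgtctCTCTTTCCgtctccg
Rpl38, chr11:114668565-114668594, plus strand: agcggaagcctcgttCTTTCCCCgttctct
Rpl14, chr9:120571502-120571531, plus strand: gggcgggccctctctCTTCTCgctgagcgc
Rps15a, chr7:118116133-118116162, minus strand: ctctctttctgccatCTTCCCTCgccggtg
Rpl35, chr2:39005117-39005146, minus strand: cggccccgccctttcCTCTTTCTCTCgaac
Rpl15, chr14:18270972-18271001, minus strand: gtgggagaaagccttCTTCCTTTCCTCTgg
Rps21, chr2:180257364-180257393, plus strand: taccgaggacccgccCTCCTgcccaatagt
Rps10, chr17:27635230-27635259, minus strand: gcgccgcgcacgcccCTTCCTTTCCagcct
Rpl3l, chr17:24727811-24727840, plus strand: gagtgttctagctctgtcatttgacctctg

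The list runs from the highest to the lowest peak at the start among the genes with a run, from Rps27 with a median height of 68.5 over the lists to Rps10 with 18. The 13 with a run and a peak had a median height of 30, and the 42 without had 34.8, with a range from 16.5 to 84.5. The 5′ ends of these mRNAs vary by a few bases, so a run that begins just beside a RefSeq start is not counted by this rule.

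Other short motifs were searched on both strands of the same windows. CCGGAAG, the core that ETS family factors such as GABP bind, was present in 25 of 72 windows (34.7%, 24.8 to 46.2), against 8.86% of all windows and 17.9% of the windows of other genes with an H3K27Ac promoter peak. GCCATC, part of the YY1 motif, was present in 25% of the members' windows, against 14.1% of all and 14.6% of those other genes. GGGCGG, the Sp1 box, was in 56.9% of the members' windows, against 35.7% of all windows but 63.8% of those other genes. TATAAA was in 9.72%, 13.6% and 7.32%. The median number of CpG dinucleotides per window was 21 both for members and for other genes with a promoter peak, and 7 over all windows. Heights with and without the motif lay close together: the 23 genes with CCGGAAG and a peak had a median height of 35, and the 32 without had 33.2. Rps21, of the small subunit, and Rpl41, the smallest protein of the ribosome, are shown as examples. Both were named by the rules given below and hold the motif in the printed bases. At most 30 of the printed bases lie inside the transcript. In other genes, such as Rps7 and Rpl38, the motif lies nearer the start. The bases from 100 before to 15 after the start are given, with CCGGAAG and any pyrimidine run at the start in capitals.
Rps21, chr2:180257279-180257393, plus strand: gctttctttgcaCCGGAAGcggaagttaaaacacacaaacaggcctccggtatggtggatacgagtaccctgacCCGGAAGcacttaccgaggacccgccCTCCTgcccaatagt
Rpl41, chr10:128549154-128549268, minus strand: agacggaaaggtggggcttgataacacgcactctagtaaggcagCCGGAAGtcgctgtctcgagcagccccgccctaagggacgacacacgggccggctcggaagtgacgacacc

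Most ribosomal protein promoters were marked in each library, and a larger share of them than of other genes was marked in all libraries. A promoter peak under the member's own symbol was present for 59 of 68 members in Des+/+ basal (86.8%, 95% Wilson interval 76.7 to 92.9), 63 in Des-/- basal (92.6%, 83.9 to 96.8), 62 in Des+/+ swim (91.2%, 82.1 to 95.9) and 55 in Des-/- swim (80.9%, 70.0 to 88.5). The same shares over the 9875 other genes with a promoter peak in at least 1 list were 87%, 91.4%, 65.3% and 64.8%. Members thus had about the share of other genes at rest and a larger share after swimming. In all lists together, 52 of the 68 had a peak (76.5%, 65.1 to 85.0), or 52 of the 67 with any (77.6%, 66.3 to 85.9), against 52.7% of other genes. Of the others, 6 had a peak in 3 lists, 4 in 2 lists and 5 in 1 list.

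The peaks of members were higher than those of other genes in every library, but their widths were close to those of other genes. The median over members of the highest promoter peak was 37 (95% order-statistic interval 33 to 42) in Des+/+ basal, 42 (36 to 46) in Des-/- basal, 27.5 (23 to 30) in Des+/+ swim and 33 (29 to 37) in Des-/- swim. Other genes had medians of 28, 30, 23 and 27. The median percentile of a member among all genes of its list was 67.7, 71.2, 63.4 and 67.1. Median widths were 1053, 1166, 808 and 943 bp in the same order, against 1011, 1053, 861 and 904 bp for other genes. The 95% interval of the members' median width held the median of other genes in every list. The interval of their median height lay above it in 3 lists and reached it, at 23, in Des+/+ swim. The median input height at the same peaks was 3 in 3 lists and 6 in Des-/- swim, for members and other genes alike.

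**Figure D1:**
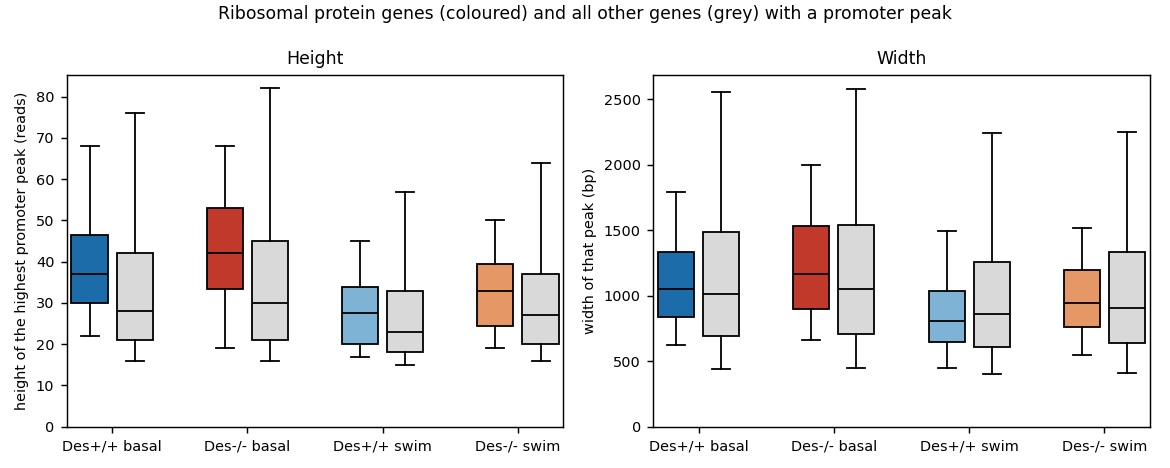
Height (left, reads) and width (right, bp) of the highest promoter peak in the 4 H3K27Ac lists, for ribosomal protein genes (coloured) and other genes (grey). Boxes span the quartiles with the median as a line, and whiskers the 5th to 95th percentile over genes; the members' median heights of 37, 42, 27.5 and 33 lie above the grey medians of 28, 30, 23 and 27.

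Few members belonged to the highest promoters of the genome: 4, 6, 4 and 2 of them exceeded the 90th percentile of their list. Values are given from here on in the order Des+/+ basal, Des-/- basal, Des+/+ swim and Des-/- swim. The highest by median over the lists was Rpl21, a large subunit protein, with heights of 90, 115, 81 and 88. Rpl19, also of the large subunit, followed with 94, 104, 66 and 75. These 2 promoters stood above the 97th percentile in all lists. Rps14, a small subunit protein, had 74, 75, 43 and 50, and Rpl35a, a large subunit protein mutated in Diamond-Blackfan anaemia, had 68, 64, 49 and 48. Rpl9 had 61, 68, 45 and 50. Every one of these 5 was lower in both swim lists than in both basal lists. The Poisson intervals of Rpl21 (72.4 to 110.6 for 90) and Rpl19 (76 to 115 for 94) overlapped, so their order is not fixed by these counts.

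**Figure D2:**
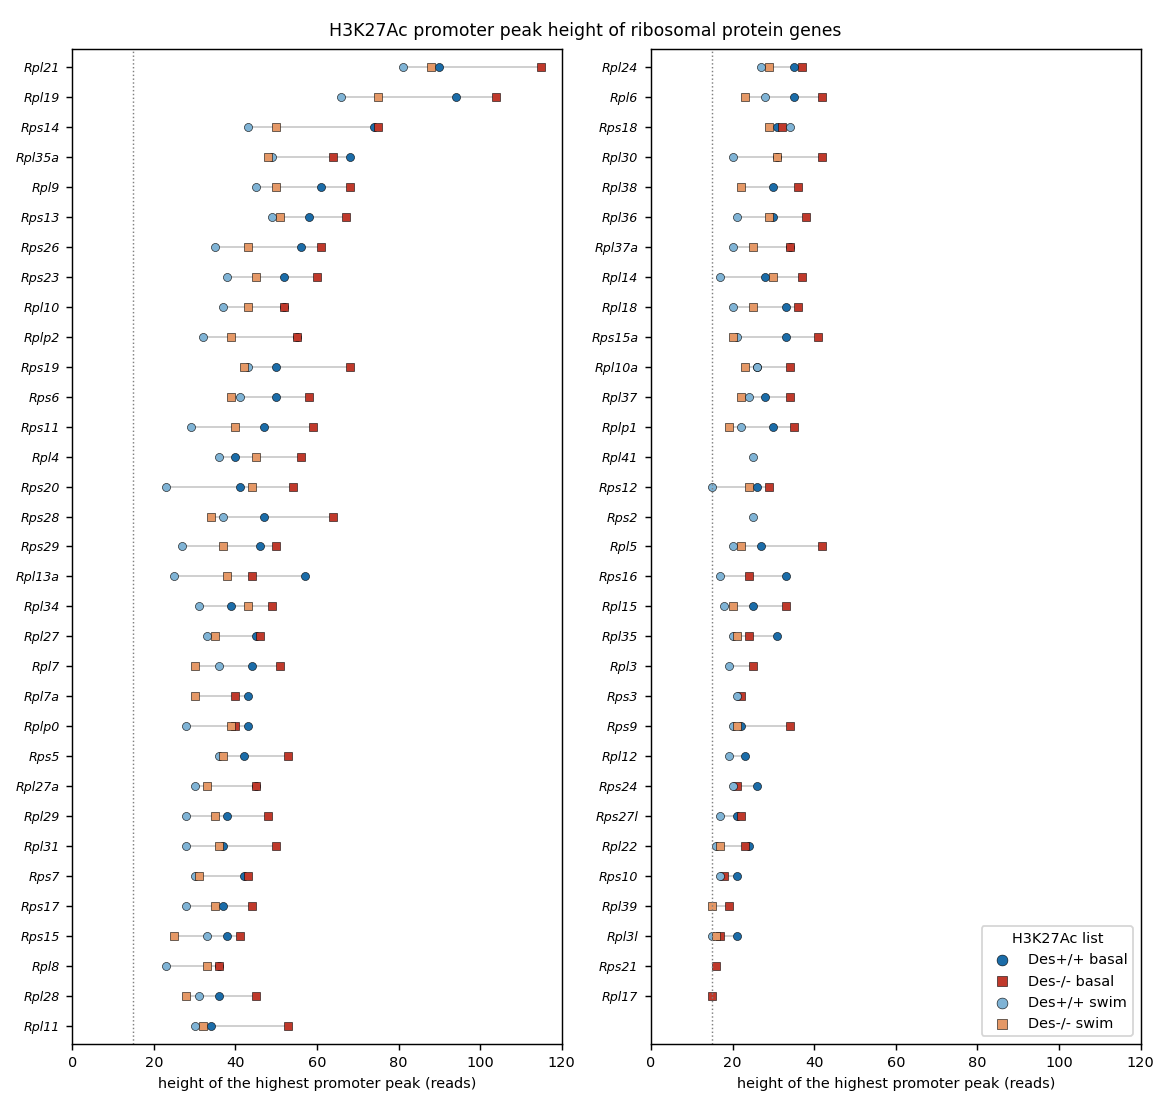
Height in reads of the highest promoter peak of 65 of the 67 members with one, by own symbol, ordered by their median over the lists; each marker is 1 library, grey lines join the lowest and highest, and the dotted line is the smallest listed height of 15. Rpl21 and Rpl19 stand apart at the top, and most members lie between 20 and 60, with the swim lists mostly to the left of the basal lists.

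Among the lowest by own symbol were Rpl17, Rps21, Rpl3l and Rpl39. Rpl17 was listed only in Des-/- basal, at 15. It had higher peaks at its start that carried the symbol of a snoRNA gene in its introns, as described below. Rps21 was listed only in Des-/- basal, at 16, upstream of its start. Rpl39, an X-linked gene of the large subunit, had peaks only in the desmin-null lists, at 19 at rest and 15 after swimming. These heights lie at the limit of 15, so the lack of a peak in the Des+/+ lists was not a detectable difference at this depth.

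Rpl3l stood low in all libraries, with heights of 21, 17, 15 and 16 and Poisson intervals from 8.4 to 32.1. Its peaks did not sit at one place. In the basal lists they covered chr17:24732080-24732545 (Des+/+) and chr17:24731909-24733108 (Des-/-), near the annotated start at 24732685. In the swim lists they covered chr17:24728063-24728989 (Des+/+) and chr17:24727883-24728897 (Des-/-), near the starts at 24727820 and 24728174. Neither place was listed in both conditions. The heights lie close to the limit of 15, and the change of place was not tested. Rpl3, the general form, had 34, 37, 22 and 21 at its start under the symbol of a snoRNA gene, above Rpl3l in every list.

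By own symbol, small subunit members had the higher median height in every list. A smaller share of them was listed in every list but Des+/+ swim. The 38 large subunit members had median heights of 35, 41, 26.5 and 30, and the 27 small subunit members 41.5, 43.5, 28 and 37. A promoter peak was present for 34, 36, 34 and 34 large subunit members and for 22, 24, 25 and 18 small subunit members, and in all lists for 31 and 18. These differences were not tested. The stalk proteins, which recruit the elongation factors to the ribosome, were present in all lists. Rplp0, the base of the stalk, had heights of 43, 40, 28 and 39, Rplp1 had 30, 35, 22 and 19, and Rplp2 had 55, 55, 32 and 39. Rps6, the target of the S6 kinases, had 50, 58, 41 and 39. Of the 18 members mutated in Diamond-Blackfan anaemia, a failure of red cell formation, 16 had peaks in all lists, with median heights of 37, 45, 27.5 and 34.5, close to the medians of all members. Rps19, the gene most often mutated in it, had 50, 68, 43 and 42. Rpl5 and Rpl11, which together bind Mdm2 when ribosome assembly fails, had 27, 42, 20 and 22 and 34, 53, 30 and 32.

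Peaks sat just downstream of the start. To see this, the highest peak of any symbol within 1000 bp of an annotated start (GENCODE vM21, same genome build) was taken for each gene. The median distance from the principal start to the summit was 236 bp downstream in Des+/+ basal (95% order-statistic interval 202 to 271), 246 bp (200 to 278) in Des-/- basal, 226 bp (189 to 242) in Des+/+ swim and 228 bp (145 to 290) in Des-/- swim. Other genes had medians of 190, 187, 189 and 193 bp, outside the members' interval at rest and inside or at the edge of it after swimming. The summit was downstream of the start in 79.7%, 81.3%, 81.9% and 75.4% of the genes, against 71.3%, 72.6%, 70.5% and 70.9%. At 500 bp downstream, 92%, 94.7%, 85.3% and 82.7% of the ribosomal protein genes with a peak in any list lay inside one, against 67.3%, 72.4%, 45.7% and 47.6% of other genes. Genes with no peak in a given list count as not covered, so these shares mix position with presence. In the swim lists 72 and 69 of the 75 ribosomal protein genes had a peak at a start, against 68.3% and 68.5% of other genes. At 1000 bp upstream the members were covered less often, at 4%, 6.67%, 5.33% and 4% against 13%, 13.9%, 8.18% and 8.11%. The genes themselves are short: their median length is 3232 bp.

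**Figure D3:**
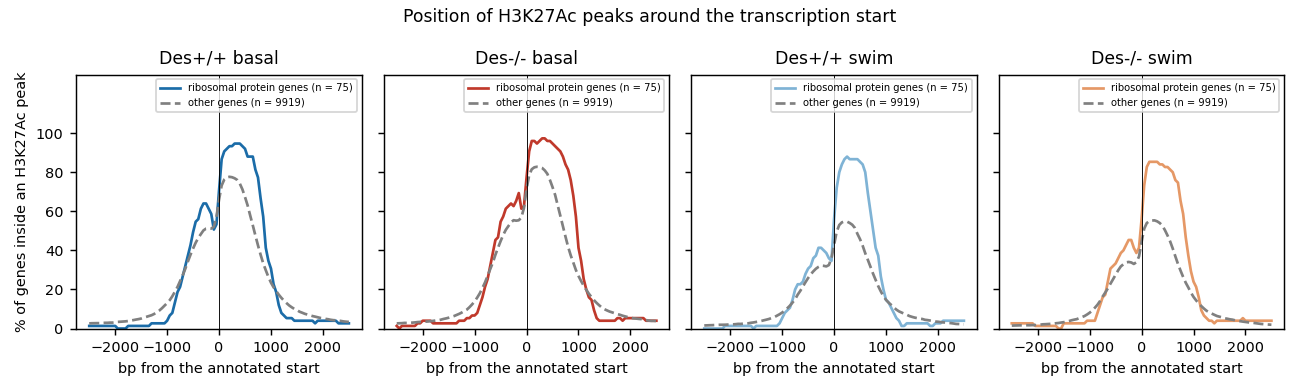
Share of genes (%, vertical axis) that lie inside an H3K27Ac peak at each distance from the principal annotated start (bp, horizontal axis, positive values downstream), for 75 ribosomal protein genes (solid) and 9919 other genes (dashed) with a peak at a start in any list. At 500 bp downstream the solid lines still stand at 82.7% to 94.7%, and they exceed the dashed lines most in the swim lists. In those lists only 68.3% and 68.5% of other genes had any peak at a start, and genes without one count as not covered.

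Many ribosomal protein promoters were marked under another gene's name. GENCODE holds 79 protein-coding genes that match the symbol rule. A peak of any symbol lay within 1000 bp of a start in 74 of them in Des+/+ basal (93.7%, 95% Wilson interval 86.0 to 97.3), 75 in Des-/- basal (94.9%, 87.7 to 98.0), 72 in Des+/+ swim (91.1%, 82.8 to 95.6) and 69 in Des-/- swim (87.3%, 78.2 to 93.0). The shares over the 9919 other genes with such a peak in any list were 91%, 95.4%, 68.3% and 68.5%. In all lists together a peak was there for 67, which is 84.8% of the 79 (75.3 to 91.1) and 89.3% of the 75 with any (80.3 to 94.5), against 58.7% of other genes. The peak at the start carried another symbol in 16, 17, 14 and 16 genes. That is 21.6%, 22.7%, 19.4% and 23.2% of them, against 18.1%, 18.1%, 18.2% and 18.5% of other genes, inside the members' intervals, so naming of this kind was as common elsewhere.

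Many substitute names were those of snoRNA genes inside the gene or of head-to-head neighbours, but some were neither. Among these, Rpl26 carried Gm15772 in all lists, Rpl41 carried Zc3h10 in all lists but Des+/+ swim, and Rps21 carried Mir3091 at rest. 28 of the 79 genes hold snoRNA genes (53 in all), against 1.03% of other protein-coding genes. The start of Rpl13 carried Snord68, with heights of 31, 40, 30 and 38, and that of Rpl17 carried Snord58b, with 49, 68, 28 and 40. Rps2 carried Snora78 with 43, 64, 27 and 37. Rpl23, Rpl23a, Rpl3 and Rpl32 carried snoRNA names in all lists too. Other starts lie head to head with a protein-coding neighbour, as in 12 of the 79. Rps25 carried Trappc4 with 36, 47, 20 and 31, Rps27a, which encodes a fusion of ubiquitin with a ribosomal protein, carried Clhc1 with 58, 45, 32 and 44, and Rps18 carried Vps52 in all lists but Des+/+ swim. At such a start the mark of the 2 genes cannot be told apart. Rps27 carried Rps27rt, with 78, 84, 51 and 59, above most members, although its own symbol was in no list. Genes with a head-to-head neighbour had a median height of 38.8 over the lists (n = 12), and the rest with a peak 34.5 (n = 63). Hosts of snoRNA genes had 33.8 (n = 28) and the rest 35.5 (n = 47).

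**Figure D4:**
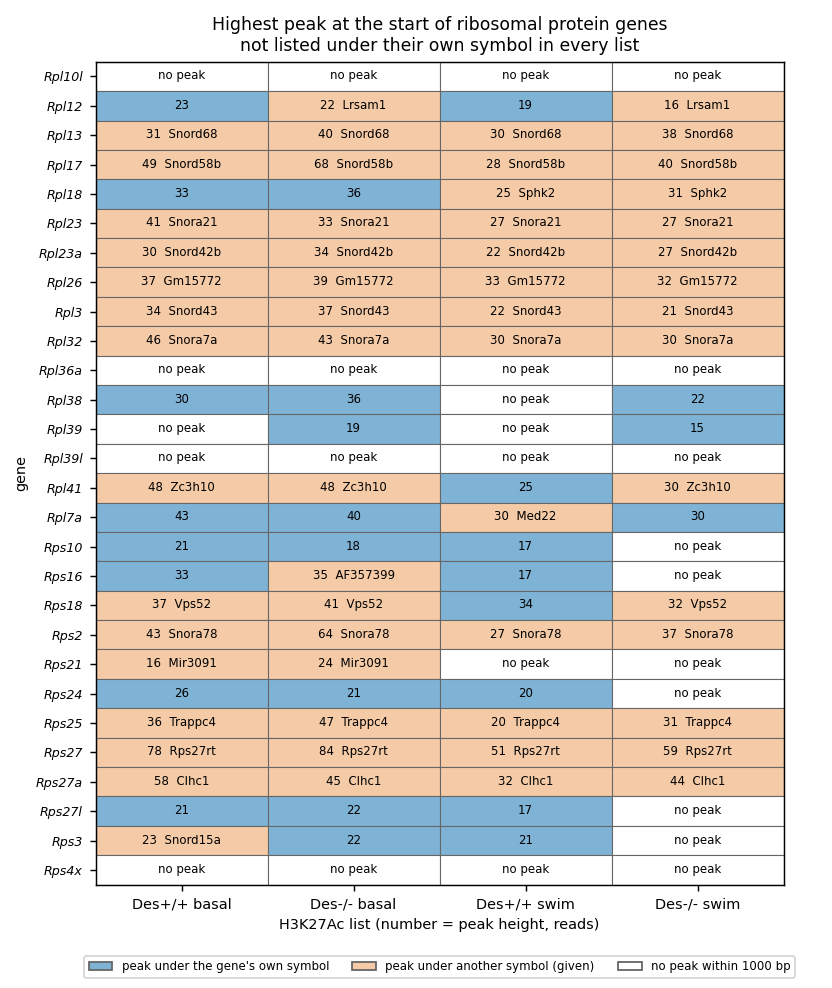
Highest H3K27Ac peak within 1000 bp of the start, by list (columns). The rows are ribosomal protein genes for which this peak carried another symbol, or was missing, in at least 1 list. The number is the height in reads. Blue cells carry the gene's own symbol, orange cells another symbol, which is given, and white cells have no peak. Rpl18 and Rps18 also had a promoter peak under their own symbol in every list. Rpl10l, Rpl36a, Rpl39l and Rps4x are white throughout, and 6 more genes are white in Des-/- swim.

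Of the 12 annotated genes whose symbol was in no list, 8 had a peak at the start in all lists: Rpl13, Rpl23, Rpl23a, Rpl26, Rpl32, Rps25, Rps27 and Rps27a. The 4 without a peak in any list were Rpl10l and Rpl39l, paralogs expressed mainly in the testis, and the X-linked Rpl36a and Rps4x. The X-linked Rpl10, of the large subunit, had heights of 52, 52, 37 and 43. Of the 4 X-linked genes, with Rpl39, 1 was marked in all lists, 1 in the desmin-null lists and 2 in none. No peak at Rps4x and Rpl36a says only that none was listed there.

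Swimming was compared with rest within each genotype. The swim lists hold fewer peaks in all, and most members were lower in them, yet few lost their promoter peak. In Des+/+ mice 2 of the 59 members with a basal promoter peak had none after swimming (3.39%, 95% Wilson interval 0.93 to 11.5), against 28.2% of other genes. They were Rpl38, whose basal height was 30, and Rpl7a, whose basal height was 43. At the start of Rpl7a the Des+/+ swim list held a peak of 30 named Med22, its head-to-head neighbour, so Rpl38 was the 1 gene of this pair without any peak there. 5 members had a promoter peak only after swimming, among them Rpl3, Rpl41, Rps2 and Rps3, and all 5 had a basal peak at their start under another name. Of the 9875 other genes, 274 had a promoter peak only after swimming in Des+/+.

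In Des-/- mice no member gained a promoter peak after swimming, while 270 of the 9875 other genes did. Of the 63 members with a basal peak, 8 had none after swimming (12.7%, 6.58 to 23.1), against 32.1% of other genes. They were Rpl17, Rpl3, Rps10, Rps16, Rps21, Rps24, Rps27l and Rps3. Rpl17 and Rpl3 kept peaks of 40 and 21 under snoRNA names. The other 6 encode small subunit proteins or their paralog, and had no peak within 1000 bp of a start in Des-/- swim. Rps10, Rps24 and Rps3 encode core proteins of the small subunit, the first 2 of them mutated in Diamond-Blackfan anaemia, and Rps27l is a paralog of Rps27 induced by p53. Their heights at the start in the other 3 lists were 21, 18 and 17 for Rps10, 33, 35 and 17 for Rps16, 26, 21 and 20 for Rps24, 21, 22 and 17 for Rps27l, and 23, 22 and 21 for Rps3. Rps21 had 16 and 24 at rest and no peak in either swim list. All but Rps16 were low already at rest. The input height at these lists' promoters was also higher in Des-/- swim, at a median of 6 against 3, for members and other genes alike, and its part in these losses was not tested.

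Basal height and loss went together, with heights and losses counted under the gene's own symbol. In Des+/+ no member had a basal height of 15 to 20, while 2089 other genes did, and 71% of those had no peak after swimming. At basal heights of 21 to 30, 1 of 16 members was lost (6.25%) against 30.6% of other genes, and at 31 to 40, 0 of 19 against 5.97%. At 41 or more, 1 of 24 was lost (4.17%, Rpl7a) against 1.16%. In Des-/-, 3 of 5 members at 15 to 20 were lost (60%) against 75.6% of other genes, and 5 of 8 at 21 to 30 (62.5%) against 41.8%. At 31 to 40 and at 41 or more, 0 of 16 and 0 of 34 were lost, against 14.4% and 2.07%. These bins depend on the naming of peaks. Rps16, at 24 by its own symbol in Des-/- basal, had 35 at its start and no peak there in Des-/- swim. Rpl7a kept a peak of 30 at its start in Des+/+ swim, named Med22. The share of losses among members over all heights was thus below that of other genes, but it was above theirs at 41 or more in Des+/+ and at 21 to 30 in Des-/-, on 1 and 5 lost members. A count of 0 of 34 allows a share of up to 8.82%, and 0 of 16 one of up to 18.8%. Counted over heights of at least 20 only, 11 of 59 members were lost in Des+/+ (18.6%) against 38.3% of other genes, and 7 of 58 in Des-/- (12.1%) against 34.4%.

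Promoters present in both lists were compared by their log2 height ratio, centred on the median over all genes with a promoter peak in both lists. That median was -0.50 for swim over basal in Des+/+ and -0.45 in Des-/-. The centred median over members was 0.05 in Des+/+ (n = 57 genes, 95% order-statistic interval -0.01 to 0.15) and 0.00 in Des-/- (n = 55, -0.07 to 0.05), so members fell by about as much as the average promoter. Without centring, 55 of 57 and 54 of 55 were lower after swimming. The uncentred medians were -0.45 and -0.44 over members, and -0.50 and -0.45 over other genes. How many other genes were lower by any amount was not counted. By at least 1.5-fold after centring, 1 member was higher (Rps18) and 1 lower (Rpl13a) in Des+/+, where 3.91% and 3.03% of other genes were. In Des-/- 1 was higher and 1 lower (Rps15a), where 4.23% and 2.77% of other genes were. The split changes without centring: 0 members were higher and 19 lower in Des+/+, against 0.211% and 40.1% of other genes, and 0 higher and 15 lower in Des-/-, against 0.31% and 34.2%.

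The genes past the fold were singled out after their values were seen. Rpl13a, a large subunit protein with a further role in translational silencing, had heights of 57, 44, 25 and 38. Its centred log2 ratio was -0.69 in Des+/+ and 0.24 in Des-/-, and the exact 95% interval of the ratio itself in Des+/+ (log2 -1.93 to -0.49) just reached the median of all genes. Rps15a, of the small subunit, had 33, 41, 21 and 20 and a centred ratio of -0.59 in Des-/-. Rps18, also of the small subunit, had 31, 32, 34 and 29 by its own symbol and a centred ratio of 0.63 in Des+/+. At its start, with the peaks named Vps52 counted, it had 37, 41, 34 and 32, and the centred ratio came to 0.38, below the fold. An interval wholly to 1 side of the median of all genes was found for 0 of 57 members in Des+/+ and 1 of 55 in Des-/-, against 1.85% and 2.32% of other genes. With fold enrichment over the input in place of height, Rps15a did not pass the fold in Des-/- but was lower in Des+/+. By the same measure Rps18 was higher and Rpl13a lower in Des+/+. By centred height no member passed the fold in the same direction in both genotypes. With fold enrichment Rpl28, Rps18 and Rps23 were higher in both, where 18.2% and 20% of other genes were higher in Des+/+ and in Des-/-. Without centring Rps14 and Rps15a were lower in both, where 40.1% and 34.2% of other genes were lower in Des+/+ and in Des-/-. The share of other genes past the fold in both genotypes at once was not counted.

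Loss of desmin was compared within each condition. At rest the median over all genes of the log2 height ratio Des-/- over Des+/+ was 0.12, and the members' centred median was 0.07 (n = 58, -0.04 to 0.15). No member was higher or lower by 1.5-fold after centring, where 3.04% and 2.97% of other genes were. The extremes were Rpl11 at 0.53 and Rps16 at -0.57. The value of Rps16 rests on its own-symbol peaks (33 and 24), and the highest peak at its start in Des-/- basal was 35, under the symbol AF357399. Without centring Rpl11, Rpl5 and Rps9 were higher and none lower, against 6.42% and 1.44% of other genes. Rps9, a small subunit protein, had heights of 22, 34, 20 and 21. The intervals of 0 of 58 members excluded the median of all genes, against 1.95% of other genes.

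After swimming the median over all genes was 0.18 and the members' centred median -0.03 (n = 52, -0.09 to 0.12). Rps20 and Rpl14 were higher by at least 1.5-fold in Des-/- and none was lower, where 3.4% and 3.96% of other genes were. Rps20, of the small subunit, had heights of 41, 54, 23 and 44, with a centred log2 ratio of 0.76 and an exact interval of the ratio itself of 0.18 to 1.73. Rpl14, of the large subunit, had 28, 37, 17 and 30, with a centred ratio of 0.64 and an interval of -0.09 to 1.77. In both the Des+/+ swim library was the lowest and the other 3 lay closer together. Rps20 was the only 1 of 52 members whose interval excluded the median of all genes, against 1.77% of other genes. Without centring 5 were higher (Rpl13a, Rpl14, Rpl30, Rps12 and Rps20) and 0 lower, against 10.4% and 1.44%. With fold enrichment over the input Rps20 did not pass the fold, and with heights of at least 20 Rpl14, whose Des+/+ swim height is 17, dropped out. These comparisons share libraries: the Des+/+ swim library enters both the swim and the desmin comparison.

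**Figure D5:**
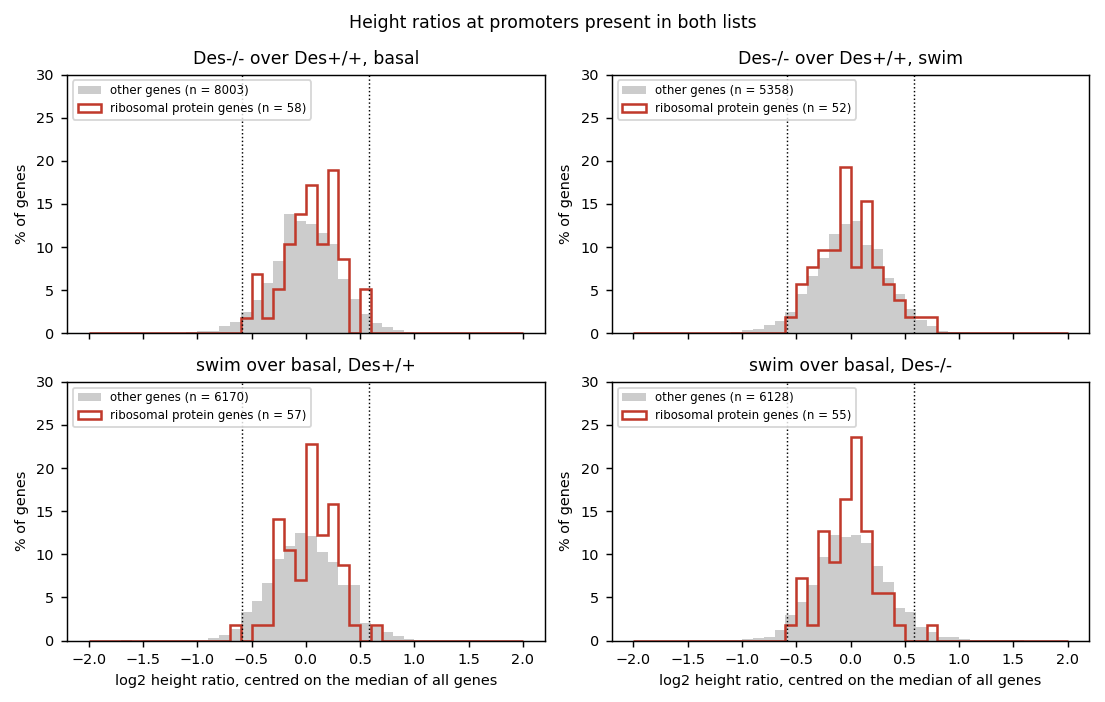
Share of genes (%, vertical axis) by centred log2 height ratio (horizontal axis, bins of 0.1) in the 4 comparisons, for ribosomal protein genes (red outline) and other genes (grey), with dotted lines at 1.5-fold; values of other genes past -2 or 2 are drawn at the ends. The members lie around 0 in each panel and inside the grey distribution, with 0 to 2 of them past either line.

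By presence, 1 member (Rpl12) was listed at rest only in Des+/+ and 5 (Rpl17, Rpl3, Rpl39, Rps21 and Rps3) only in Des-/-, where 5.92% and 10.4% of other genes were. After swimming 10 were listed only in Des+/+ (among them Rpl12, Rpl3, Rpl41, Rps10, Rps16, Rps2, Rps24, Rps27l and Rps3) and 3 only in Des-/- (Rpl38, Rpl39 and Rpl7a), of 68, where 11% and 10.5% of other genes were. Counted at the starts with any symbol, those without a peak in Des-/- swim but with one in Des+/+ swim were Rps10, Rps16, Rps24, Rps27l and Rps3, and the reverse held for Rpl38 and Rpl39. At the starts, 68.3% of other genes had a peak in Des+/+ swim and 68.5% in Des-/- swim. How many of them differed between these lists was not counted. Rpl12 had a peak at its start in all lists, named Lrsam1 in the desmin-null libraries, with heights of 23, 22, 19 and 16.

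The 2 gene groups taken as most like these also encode housekeeping complexes. Of 60 mitochondrial ribosomal protein genes, 24 had a promoter peak in all lists, with median heights of 24, 23.5, 19 and 21. Of 36 proteasome subunit genes, 24 had one, with medians of 34, 32.5, 23.5 and 29. The mitochondrial proteins went from 45 and 54 genes at rest to 31 and 41 after swimming, and the proteasome from 34 and 36 to 28 and 27, where the cytosolic ribosomal proteins went from 59 and 63 to 62 and 55. The differences between the groups were not tested.

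Other genes of protein synthesis were described from lists of fixed membership. Of 9 symbols of ribosomal proteins outside the symbol rule, 8 had a promoter peak and 7 had one in all lists. The symbol without one was Gnb2l1, the former name of Rack1, which had a peak, so the list holds 8 genes. Rpsa, the laminin receptor and small subunit protein, had 46, 58, 26 and 34, and Rps3a1 had 49, 53, 23 and 31, the 1 gene of this group past 1.5-fold (lower after swimming in Des+/+). Of 16 elongation factors and other genes of TOP mRNAs, 10 were in all lists. Eef1a1, which brings aminoacyl-tRNA to the ribosome, had 60, 75, 45 and 55. Of 23 initiation factor genes, 17 were in all lists, with median heights of 47.5, 53, 39.5 and 41.5, above those of the ribosomal proteins. Eif1, which acts in start codon choice, had 167, 169, 126 and 128, higher than any ribosomal protein gene. Of 40 ribosome assembly genes, 21 were in all lists, among them Ncl (nucleolin) with 66, 71, 35 and 45. Of 12 genes that control ribosomal protein synthesis, 7 were in all lists. Mtor had 26, 37, 22 and 28, and Larp1 had 24, 36 and 15 and no peak in Des-/- swim. Across these 5 lists, between 0 and 2 genes passed 1.5-fold in either direction of any comparison. Nap1l1 and Nop56 were among the 3 higher in Des-/- at rest.

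Lamin A/C, which lines the inside of the nuclear envelope, was profiled in the same 4 groups with far fewer peaks. By symbol, 4 members carried a lamin A/C peak in Des+/+ swim and none in the other 3 lists: Rps2 (height 9), Rps18 (9), Rps12 (8) and Rpl8 (8), each with an input height of 2. All 4 summits lay in exons. By gene body, 4 of the 79 annotated genes (5.06%) overlapped a lamin A/C peak in this list, against 0.722% of other protein-coding genes. In Des-/- basal 1 did (Rps3), against 0.791%, and for Des+/+ at rest and Des-/- after swimming 0 did, against 0.267% and 0.492%. Heights in these lists start at 8, so these peaks are at the limit of detection.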

How the data were processed

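Chromatin of cardiomyocytes was immunoprecipitated for H3K27Ac or lamin A/C and sequenced with a matched input, 1 library per genotype and condition. The authors aligned reads to GRCm38 (mm10) with Bowtie2 2.4.4, used SAMtools 1.13, called peaks with their own scripts and annotated them with ChIPseeker 1.36.0 (versions from the submitters' processing notes). Removal of duplicates, handling of reads that map to several places, read extension and scaling to the input are not given in the sources used here. Each deposited list gives, per peak, a signal for the ChIP and the input (the summit height, in whole reads), its width and summit, and a score column that is the signed distance to the nearest start, with a gene symbol. No counts per library were used, so depth is unknown.

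The highest promoter peak per symbol was taken (3000 bp). Height ratios were centred on the median over all genes, with a fold of 1.5. Intervals are Wilson for shares, order-statistic for medians, exact Poisson for heights and Clopper-Pearson for ratios, all at 95%. Those for heights and ratios cover counting error of reads only. Those for shares and medians are taken over genes, and none covers variation between libraries. Genes are not replicates, so no test was run. Starts are from GENCODE vM21 on the same build. Promoter windows are RefSeq. Python 3.11.15, pandas 2.3.3, numpy 2.4.6, scipy 1.17.1 and matplotlib 3.10.9 were used, and the ratio and interval code was tested on simulated data. Genes were named by rule: the 5 highest and 5 lowest members by median height, 15 of the 16 members missing from a list (those with the highest remaining height), those past the fold in the same direction in both genotypes or conditions (0), and set paralogs, stalk proteins and Rps6, Rps19, Rpl5 and Rpl11. Other members named for passing the fold in 1 comparison were chosen after their values were seen. Members and lists were chosen with earlier results of these data known. The view by position, and the comparison by basal height, were chosen after seeing the data. Values of 2 members are not reported here by name, and the counts over all members include them.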

Additional observations from a re-analysis of the deposited data

Results flagged for a closer look

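By symbol, lamin A/C peaks were found at 4 members in Des+/+ swim (Rps2, Rps18, Rps12 and Rpl8) and at none in the other 3 lamin A/C lists, a signal outside the H3K27Ac measurement. By gene body, Rps3 also overlapped 1 in Des-/- basal. With 1 library per group the difference between the lists was not tested.

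The height of Rpl13a was lower after swimming in both genotypes, but relative to the median of all genes it was below in one and above in the other: its centred log2 height ratio was -0.69 in Des+/+ (57 to 25 reads) and 0.24 in Des-/- (44 to 38 reads). The difference between the genotypes was not tested.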

How the results depend on the processing

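Of 184 values recomputed under 11 planned settings and 1 chosen after seeing the data, 139 stayed within 1.5 times the count or inside the interval of the median, and 45 did not. Presence in each list, presence in all lists and median heights stayed so under every setting run for them. Presence in all lists ranged from 46 to 56 of the 68 members by symbol, with 56 when the Des-/- swim list was left out. By position, with any symbol, it was 67 of the 79 annotated genes, which is another gene set. Lost peaks in Des+/+ rose from 2 to 5 with distance 0 and to 11 with heights of at least 20. Summed widths gave medians of 1272, 1388, 949 and 1168 bp. The counts past 1.5-fold are small and moved most. In the order desmin at rest, desmin after swim, swim in Des+/+ and swim in Des-/-, and higher before lower, they were 0 and 0, 2 and 0, 1 and 1, and 1 and 1. With distance 0, 1 was higher, 3 lower, and 4 higher in the first 3, against 3.2%, 3.8% and 4.1% of other genes. With heights of at least 20, 1 was higher in the second, against 2.11% of other genes. With the nearest peak the counts were 1 higher, 3 lower, 4 higher and 2 lower, against 3.5%, 4.1%, 4.5% and 3.4% of other genes. With fold enrichment over the input, whose heights are a few reads, the centred median for swim in Des-/- was 0.12. The counts were then 6 and 5 of 58, 9 and 6 of 52, 12 and 11 of 57, and 14 and 9 of 55. Of other genes, 16.9% and 15.6%, 17.5% and 16.8%, 18.2% and 16.9%, and 20% and 17.8% passed the fold by this measure. With height minus input the counts were 1 and 1, 4 and 3, 2 lower and 2 lower. The shares of other genes were 4.95% and 5.04%, 7.99% and 7.9%, 5.92% and 7.05%. Not centred, the medians were 0.18, 0.14, -0.45 and -0.44, with 3 higher, 5 higher, 0 and 19, and 0 and 15. At 2-fold, 0 members passed in any comparison. By position, 0 were lower after swimming in Des-/-.

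No paired analysis was possible because each group has 1 library. With 1 library per group, pooled mice, unknown depth and a height limit of 15, differences between lists cannot be told apart from differences between libraries. Where groups share a library, their comparisons are not independent. Members that share a start with a neighbour, or carry a snoRNA, depend on how peaks were named.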
